A study of Mus musculus with 3 samples.

Results

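The mir-99 and mir-100 family in mouse has 3 members, mmu-miR-99a, mmu-miR-99b and mmu-miR-100, and its levels were measured in primary aortic smooth muscle cells (AoSMC). The members were chosen by name: every row of the deposited tables that carries one of these names was taken, whatever its value. This gave 12 rows from 3 hairpins, 6 of them microRNAs (miRs) and 6 of them microRNA-offset RNAs (moRs), out of 2590 rows from 808 hairpins. All 12 are accounted for here, and 4 of the 6 moRs had at least 1 read. In the whole series, where 1295 of the 2590 rows were miRs and the rest moRs, 288 moR rows had at least 1 read. The series held 1 group of 3 replicate small RNA libraries with no treatment. The cells grew out of pieces of several C57BL/6 aortas in serum-containing medium and were harvested shortly before confluence, so they stand for cells in culture rather than for the vessel wall. According to the labels these are biological replicates, but no label ties a library to its own culture. A p-value here thus reflects the spread between 3 samples that may differ only technically. That spread was estimated in part from all rows tested together, so a very small p-value does not measure 1 pair's spread.

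A miR is cut from one arm of a hairpin, called 5p or 3p, by Drosha and then Dicer, and a moR is the stretch that lies against the miR on the outer side of the same arm. The miR guides an Argonaute protein to messenger RNAs that pair with its seed, bases 2 to 8 from its 5′ end. The mir-99 and mir-100 family is old and widely expressed, and each member shares a genomic cluster with a let-7 and a mir-125 hairpin. The family is best known for targeting the kinase mTOR, and its members have been described as brakes on growth in human and mouse cells.

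The 6 mature sequences are shown because the seed sets the family and because 1 base separates its most abundant members. They come from RefSeq (GRCm38.p6), run 5′ to 3′ and carry the seed in capitals.

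miR-99a-5p: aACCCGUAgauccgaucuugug
miR-100-5p: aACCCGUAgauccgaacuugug
miR-99b-5p: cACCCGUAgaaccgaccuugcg
miR-99a-3p: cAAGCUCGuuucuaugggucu
miR-99b-3p: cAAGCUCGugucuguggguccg
miR-100-3p: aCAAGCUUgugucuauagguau

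The 3 5p miRs have the same seed, and no other of the 1679 mature mouse miR names in the RefSeq table has it. Counted from the 5′ end, miR-99a-5p and miR-100-5p share their first 15 bases and differ by 1 substitution, U16A from miR-99a-5p to miR-100-5p. From miR-99a-5p to miR-99b-5p there were 4 substitutions, A1C, U11A, U16C and U21C, none of them in the seed. On the other arm miR-99a-3p and miR-99b-3p share a seed that no other miR in the table has, whereas the miR-100-3p seed occurs once. Reads were mapped without a mismatch, so a full-length read of miR-99a-5p and one of miR-100-5p were told apart only by base 16. A read of the shared first bases alone would fit both loci and be divided between them. All 12 rows held whole numbers in every library, which an even number of such reads would also give, so their number is not known. Misread bases at position 16 were not tested.

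The RefSeq hairpins of Mir99a and Mir100 are shown with both miRs in capitals. Outside the miRs the annotated hairpin holds 4 and 3 bases for Mir99a and 12 and 12 for Mir100. The moR windows reach 35 bp outward, past these annotated ends, so the ends do not limit where a moR was counted.

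Mir99a: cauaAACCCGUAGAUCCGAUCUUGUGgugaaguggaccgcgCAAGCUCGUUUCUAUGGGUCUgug
Mir100: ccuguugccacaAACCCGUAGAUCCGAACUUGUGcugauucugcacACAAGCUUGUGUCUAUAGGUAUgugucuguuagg

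Mir99a lies at chr16:77598936-77599000 on the plus strand (GENCODE M21, mm10), in an intron of the noncoding gene Mir99ahg. It also lies opposite an intron of Gm11146, a gene on the minus strand. Mir100 lies at chr9:41531425-41531504 on the plus strand, in introns of the noncoding genes 3110039I08Rik and Gm49317 and opposite an exon of the minus-strand gene Gm48742. Mir99b lies at chr17:17830188-17830257 on the plus strand, in an intron of the protein-coding gene Spaca6.

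The libraries held between 15123616 and 18636286 mapped reads, of which 73.1% to 83.0% fell in miR and moR windows. Levels are in RPMR, the reads scaled to a common total of reads in these windows, where 1 read equals 0.0659 to 0.0797 RPMR. The smooth muscle markers miR-143-3p and miR-145a-5p summed to between 47412 and 57626 RPMR. The endothelial pair miR-126a-3p and miR-126a-5p summed to between 125 and 158 RPMR, and the 4 blood miRs to at most 0.923 RPMR. The striated muscle list summed to between 117 and 151 RPMR, nearly all of it miR-206-3p. The part of other cell types in the family's levels was not tested.

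The family was abundant in every library. Its 6 miRs took 4.79%, 5.10% and 5.06% of window reads in replicates 1, 2 and 3, a mean of 4.98% ± 0.167 (SD, n = 3). This rested on 652919, 639590 and 767171 reads. With miR-21a-5p, which alone held 49.0% to 53.9% of window reads, taken out of the total, the family's share was 10.4% ± 0.865 (SD, n = 3).

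The 5p miR of Mir99a was the main product of the family. The level of miR-99a-5p was 31409, 31406 and 31052 RPMR in replicates 1, 2 and 3, a mean of 31289 ± 205 (SD, n = 3), and it ranked 4th among miRs by its mean. These 3 values lay closer together than those of either other 5p miR. The level of miR-100-5p was 10123, 11997 and 11381 RPMR, a mean of 11167 ± 955 (SD, n = 3), ranked 9th. The level of miR-99b-5p was 6116, 7344 and 7877 RPMR, a mean of 7113 ± 903 (SD, n = 3), ranked 20th. The ranges of the 3 5p miRs did not overlap, and replicate 1 was the lowest library for both miR-100-5p and miR-99b-5p. Within the family, miR-99a-5p made up 62.9% ± 2.35 of the reads, miR-100-5p 22.4% ± 1.20 and miR-99b-5p 14.3% ± 1.41 (SD, n = 3).

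The 3p miRs were minor and stood in another order. The level of miR-99b-3p was 217, 205 and 216 RPMR, a mean of 213 ± 6.75 (SD, n = 3). The level of miR-99a-3p was 24.7, 22.3 and 22.3 RPMR, a mean of 23.1 ± 1.38 (SD, n = 3). The level of miR-100-3p was 5.28, 4.22 and 4.22 RPMR, from 72, 53 and 64 reads. Thus the member with the least 5p miR, Mir99b, had the most 3p miR. Of the family's reads the 3p miRs made up little, the largest share being 0.427% ± 0.0258 (SD, n = 3) for miR-99b-3p. No neighbours in the order of the 6 miRs overlapped in their values.

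**Figure D1:**
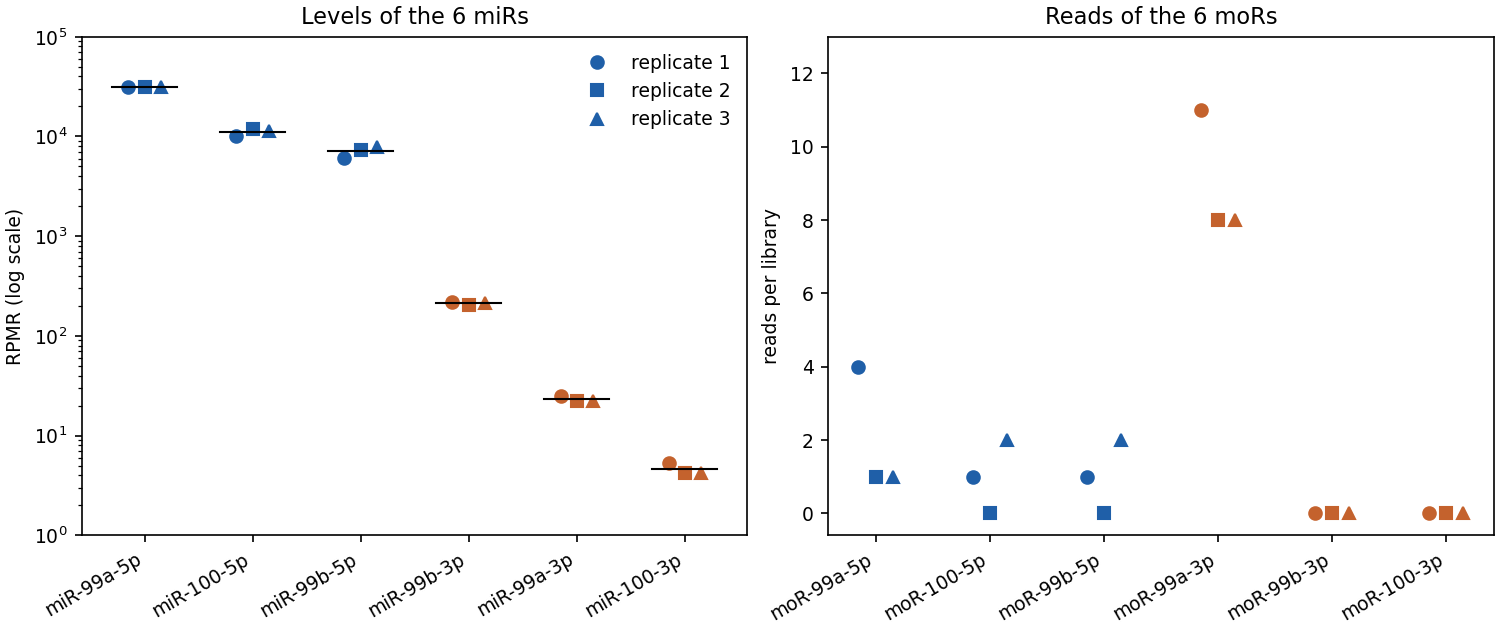
Left, RPMR of the 6 miRs on a log axis, with 1 point per library (circle, square and triangle for replicates 1, 2 and 3) and a line at the mean. Right, reads per library of the 6 moRs on a linear axis. The 5p miRs (blue) lie between 6116 and 31409 RPMR and the 3p miRs (orange) between 4.22 and 217 RPMR, and moR-99a-3p, at 8 to 11 reads, is the highest moR.

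To ask how far levels differ within a family that reads the same seed, all pairs of miRs sharing bases 2 to 8 were compared with the quasi-likelihood test of edgeR with Benjamini-Hochberg adjustment, the library being the block. Of 202 such pairs 97.0% were called different at an adjusted p under 0.05, so a call alone says little about this family. The sizes were as follows. There was 3.10, 2.62 and 2.73 times as much miR-99a-5p as miR-100-5p in replicates 1, 2 and 3, a log2 difference of miR-100-5p from miR-99a-5p of -1.49 ± 0.08 (SE, adjusted p = 7.6e-52). The ratio of miR-100-5p to miR-99b-5p was 1.66, 1.63 and 1.44, a log2 difference of 0.66 ± 0.08 (SE, adjusted p = 4.5e-15). The gap between the outer members was 5.14, 4.28 and 3.94 times, a log2 difference of 2.15 ± 0.09 (SE, adjusted p = 1.1e-83). All 3 ratios kept their direction in every library, and that of miR-99a-5p to each of the others was highest in replicate 1. On the 3p side the order of Mir99a and Mir99b was turned round. There was 8.78, 9.18 and 9.66 times as much miR-99b-3p as miR-99a-3p, a log2 difference of miR-99a-3p from miR-99b-3p of -3.20 ± 0.12 (SE, adjusted p = 7.1e-88).

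All 3 hairpins gave more 5p than 3p miR, but to very different extents. A hairpin's 2 arms come from 1 precursor, so their ratio is read within each library. For Mir100 there were 1917, 2840 and 2699 reads of miR-100-5p for each read of miR-100-3p, a log2 ratio of 11.25 ± 0.18 (SE, adjusted p = 3.3e-17). For Mir99a the 5p to 3p ratio was 1271, 1407 and 1390, a log2 ratio of 10.40 ± 0.14 (SE, adjusted p = 8.6e-18). For Mir99b it was 28.2, 35.9 and 36.5, a log2 ratio of 5.06 ± 0.14 (SE, adjusted p = 5.3e-15). Among 373 hairpins tested in the same edgeR fit, 42.9% were called with more 5p miR, so the direction is common. By size Mir100 stood 7th, Mir99a 14th and Mir99b 77th from the top of these 373 hairpins, where the median log2 ratio was -0.08 and the quartiles were -3.96 and 4.15. The Mir99b ratio in replicate 1 had a 95% exact Clopper-Pearson interval of 27.2 to 29.2, below those of replicates 2 (34.5 to 37.3) and 3 (35.3 to 37.8). Reads carried no molecular identifiers, so these intervals cover counting error only.

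The difference between arm ratios was tested directly, as an interaction of hairpin and arm over all 119 pairs of hairpins whose 5p miRs share a seed. In this fit 93.3% of the pairs were called different. The arm ratio of Mir99a was above that of Mir99b by 5.34 ± 0.12 on the log2 scale (SE, edgeR adjusted p = 2.7e-17). That of Mir100 was above Mir99b by 6.19 ± 0.15 (SE, edgeR adjusted p = 4.7e-17) and above Mir99a by 0.85 ± 0.14 (SE, edgeR adjusted p = 2.6e-05). Mir99a and Mir100, whose 5p miRs are nearly the same, thus differed least, and Mir99b had far more 3p miR for its 5p miR than either.

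**Figure D2:**
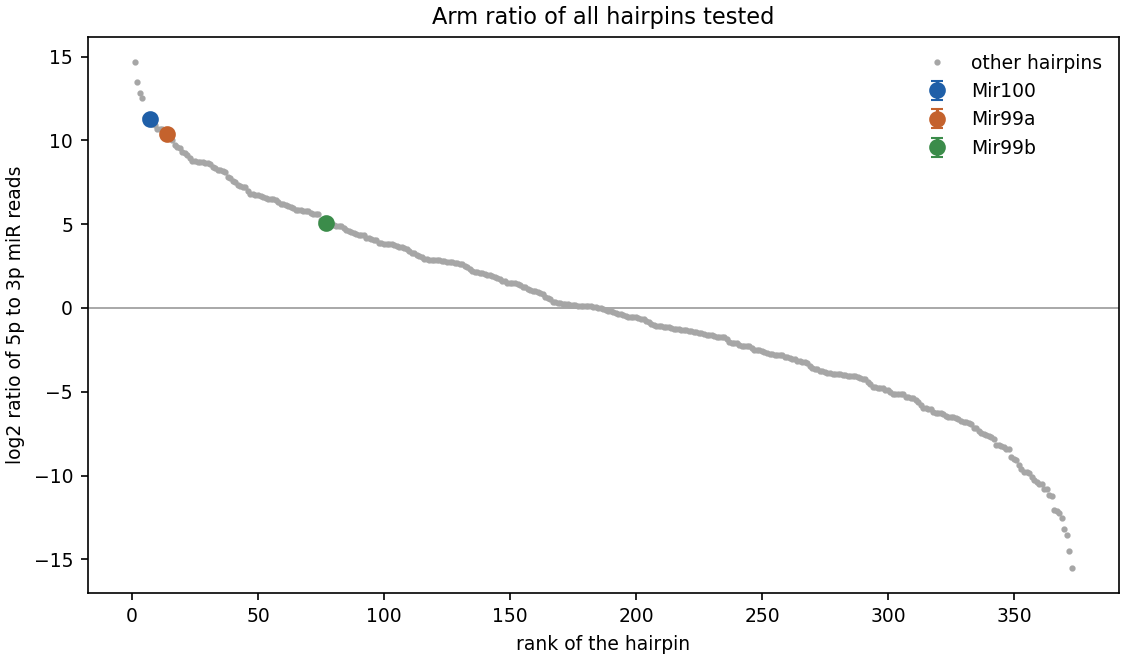
Log2 ratio of 5p to 3p miR reads (vertical axis) for all 373 hairpins tested, ordered from highest to lowest (horizontal axis, rank), with the 3 members in colour and their SE as bars, which are smaller than the points. Mir100 (11.25) and Mir99a (10.40) lie near the top of the curve and Mir99b (5.06) lower, at rank 77.

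Offset RNAs of the family were scarce. The moR windows of all 6 arms together held 17, 9 and 13 reads in replicates 1, 2 and 3. This was 0.408%, 0.155% and 0.189% of all moR reads, with 95% exact Clopper-Pearson intervals of 0.238% to 0.653%, 0.0709% to 0.294% and 0.10% to 0.322%. In every library the family's share of moR reads was thus below its share of window reads, which was 4.79% or more.

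The most abundant moR of the family came from the 3p arm of Mir99a. Its window, chr16:77598994-77599032, starts on the last bases of miR-99a-3p and runs outward past the end of the hairpin. It held 11, 8 and 8 reads of moR-99a-3p, or 0.807, 0.638 and 0.527 RPMR. The 5p window, chr16:77598905-77598943, held 4, 1 and 1 reads of moR-99a-5p. The 3p moR had more reads than the 5p moR in every library, and the fitted log2 ratio of 5p to 3p moR was -2.14 ± 0.76 (SE). Mir99a reached the minimum of 10 moR reads through its 3p moR, so no call is read for it. Of 81 hairpins with at least 10 moR reads, 11.1% were called with more 3p moR and 81.5% with more 5p moR. For Mir99a the fitted log2 ratio was -1.90 without replicate 2, -1.92 without replicate 3 and -2.36 with DESeq2, the same direction in each. Thus the 3p side of Mir99a carried less miR than the 5p side but more moR, a difference that rests on 33 moR reads in all.

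The other members had almost no moR. There were 1, 0 and 2 reads of moR-100-5p, in the window chr9:41531402-41531440, and also 1, 0 and 2 reads of moR-99b-5p, in the window chr17:17830159-17830197. No read was found for moR-100-3p or moR-99b-3p in any library, which allows up to 3 reads in all. All values for these 4 moRs lay at or below the floor of 3 reads, so they can be ordered neither among themselves nor between libraries.

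Set against the miR of its own arm, each moR was a rare product. Over the 3 libraries there were 215574 reads of miR-99a-5p for each read of moR-99a-5p (95% exact interval 99042 to 587423). The ratio was 153742 for miR-100-5p (95% exact interval 52607.5 to 745514) and 98354 for miR-99b-5p (95% exact interval 33655 to 476931). These 3 intervals overlap. On the 3p arm of Mir99a the ratio was much smaller, with 30.6, 35.0 and 42.4 reads of miR-99a-3p for each read of moR-99a-3p. Of 243 arms that had a moR read and reached 10 reads in all, 91.8% were called with more miR than moR. The 5p arms of the family reached that minimum through their miR reads, so no call is read for them. The fitted log2 ratio of moR to miR was -5.13 ± 0.30 for miR-99a-3p (SE, edgeR adjusted p = 1.3e-52). The reads of miR-99b-3p were 2935 times, and those of miR-100-3p 63 times, the floor of 3 reads over the 3 libraries for their moRs. With 0 moR reads, the lower 95% exact limits of these ratios were 2386 and 50.7.

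Each member lies in a cluster with a let-7 hairpin, whose miRs hold back proliferation and developmental timing factors, and a mir-125 hairpin, whose miRs are best known from differentiation and blood formation. On chromosome 17 the hairpins are close together, Mirlet7e starting 164 bp and Mir125a 624 bp after the start of Mir99b. On chromosome 16 Mirlet7c-1 starts 721 bp and Mir125b-2 47337 bp after Mir99a, and on chromosome 9 Mirlet7a-2 starts 5291 bp and Mir125b-1 50501 bp after Mir100. The member of the family precedes the others on the transcribed strand in all 3 clusters.

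In the chromosome 17 cluster, where all values are whole numbers, miR-99b-5p was the most abundant 5p miR. It had 83377, 92140 and 119545 reads, against 49005, 50274 and 69879 of miR-125a-5p and 22862, 17609 and 22563 of let-7e-5p. In each library the order was the same, and miR-99b-5p stood 1.75 ± 0.07 times above miR-125a-5p and 4.73 ± 0.935 times above let-7e-5p (SD, n = 3). The ratio to let-7e-5p was 3.65 in replicate 1 and 5.23 and 5.30 in the others, whereas that to miR-125a-5p lay between 1.70 and 1.83. The 3p miRs kept miR-99b-3p on top, at 7.59 ± 0.420 times let-7e-3p and 6.54 ± 0.570 times miR-125a-3p (SD, n = 3).

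In the other clusters the 5p miRs of the neighbours are shared between loci, so their values depend on how reads were divided. The mature let-7c-5p, let-7a-5p and miR-125b-5p each arise from more than 1 hairpin, and the authors split such reads evenly. For miR-125b-5p the deposited reads were nearly equal at both loci, at 106824.5 for Mir125b-2 and 107420 for Mir125b-1 in replicate 1. With that limit, miR-99a-5p was 5.00 ± 0.523 times the let-7c-5p assigned to Mirlet7c-1 and 3.28 ± 0.644 times the miR-125b-5p assigned to Mir125b-2 (SD, n = 3). The level of miR-100-5p was 2.05 ± 0.302 times the let-7a-5p assigned to Mirlet7a-2 and 1.16 ± 0.136 times the miR-125b-5p assigned to Mir125b-1 (SD, n = 3). Other divisions of the shared reads were tried after the data were seen. With all reads of let-7c-5p or of miR-125b-5p given to the chromosome 16 locus, miR-99a-5p was still above them in every library, by 2.29, 2.82 and 2.46 times and by 2.00, 1.53 and 1.39 times. With these reads divided by the 3p reads of the loci, the ratios were 22.3, 21.6 and 17.8 and 5.11, 3.51 and 3.16. The place of miR-100-5p depended on the division. With all miR-125b-5p reads given to Mir125b-1 the ratio was 0.644, 0.585 and 0.508, and with these reads divided by the 3p reads of the loci it was 1.06, 1.04 and 0.905. With all let-7a-5p reads given to Mirlet7a-2 the ratio of miR-100-5p to let-7a-5p was 0.894, 1.20 and 1.01. With these reads divided by the 3p reads of the loci it was 74.4, 129 and 85.3. Dividing by 3p reads takes the ratio of the arms to be the same at every locus, which was not tested. The 3p reads of the other let-7 loci were 4435, 3520 and 4492 for Mirlet7a-1 and 4379, 3479 and 4457 for Mirlet7c-2, nearly equal. Whether those 3p reads were themselves divided was not tested, so the sizes from this division for let-7a-5p and let-7c-5p are uncertain.

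The 3p miRs of these neighbours differ between loci in sequence, and by them the family's hairpins were the lower ones. In replicates 1, 2 and 3 there were 337, 280 and 339 reads of miR-99a-3p against 502, 523 and 714 of let-7c-1-3p and 4346, 4060 and 4722 of miR-125b-2-3p. Likewise there were 72, 53 and 64 reads of miR-100-3p against 6775, 5232 and 6039 of miR-125b-1-3p. The exception was let-7a-2-3p, at 54, 33 and 54 reads, below miR-100-3p in every library. Thus Mir99a led its cluster in 5p miR and not in 3p miR, and Mir99b led its cluster in both, while the place of Mir100 in 5p miR could not be settled.

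Adjacent hairpins with starts within 10 kb were compared over the whole table by the reads of both arms, and 91.8% of 159 such pairs were called different. Mir99a was above Mirlet7c-1 by 2.31 ± 0.08 on the log2 scale (SE, edgeR adjusted p = 0.00014). Mir99b was above Mirlet7e by 2.24 ± 0.15 (SE, edgeR adjusted p = 0.00066), and Mir100 above Mirlet7a-2 by 1.02 ± 0.10 (SE, edgeR adjusted p = 0.0022). The SE for Mir99a and Mir100 does not cover the division of shared 5p reads. For miR-99a-5p over let-7c-5p the mean log2 ratio was 2.32 with even division and 1.33 with all reads given to Mirlet7c-1. It was 4.35 with reads divided by the 3p reads of the loci. The value for Mir100 also depends on how let-7a-5p was divided, since with all of its reads given to Mirlet7a-2 the order differed between libraries. With these reads divided by the 3p reads of the loci, miR-100-5p was above let-7a-5p in every library.

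For the 5p moRs the reads within the clusters ran the other way. These comparisons were chosen after the values were seen, and the family's 5p moRs hold 3 to 6 reads in all, so the reads are given with ratios and 95% exact counting intervals and with no test. The reads of moR-125a-5p were 228, 388 and 416 in replicates 1, 2 and 3, against 1, 0 and 2 of moR-99b-5p, a ratio of 344 over the summed reads (interval 117 to 1671). The reads of moR-let-7e-5p were 5, 3 and 4, a ratio of 4.0 to moR-99b-5p (interval 1.08 to 22.1). On chromosome 16, moR-125b-5p at Mir125b-2 had 138, 211 and 265 reads, against 4, 1 and 1 of moR-99a-5p, a ratio of 102 (interval 46.7 to 279.9). The moR-let-7c-5p of Mirlet7c-1 had 10, 14 and 14 reads, a ratio of 6.33 to moR-99a-5p (interval 2.66 to 18.3). On chromosome 9, moR-let-7a-5p had 48, 52 and 59 reads and moR-125b-5p 40, 63 and 68, against 1, 0 and 2 of moR-100-5p. In every library the family's 5p moR had the fewest reads of its cluster.

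**Figure D3:**
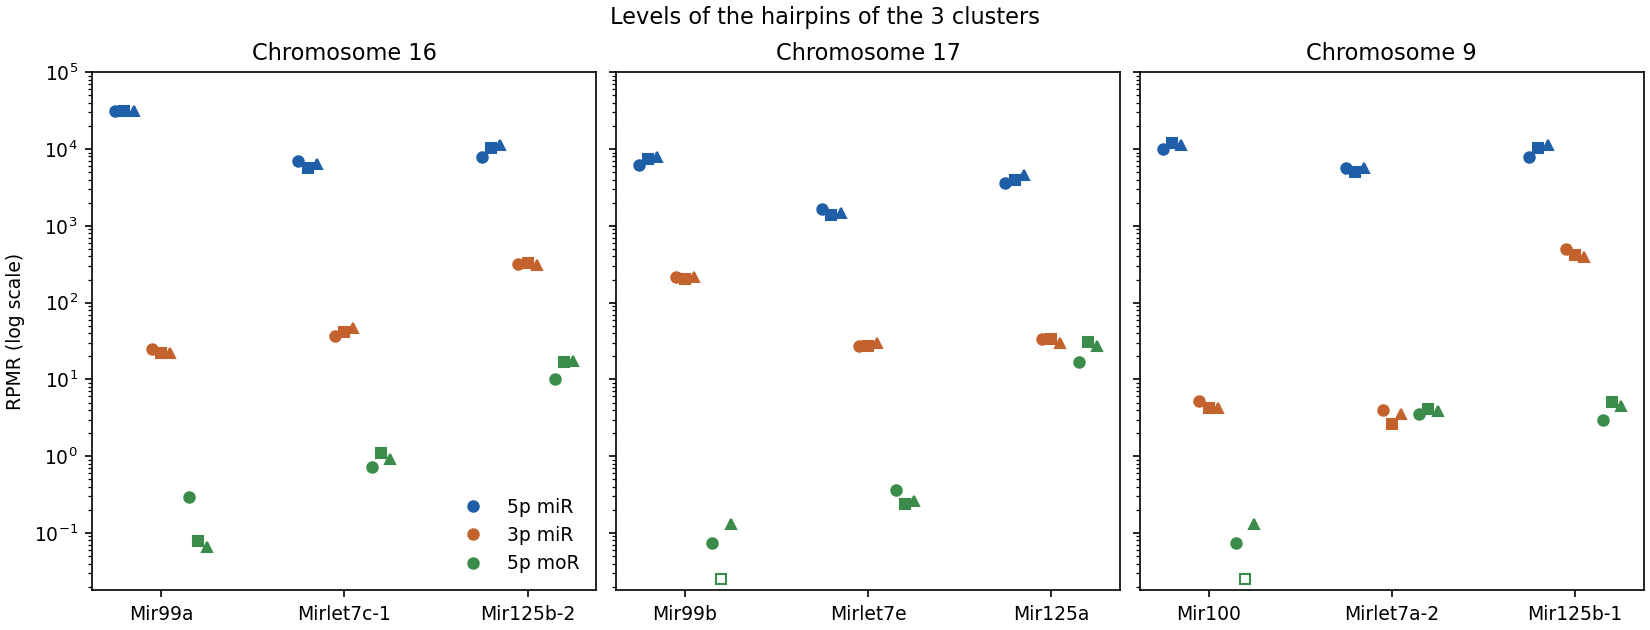
RPMR on a log axis of the 5p miR (blue), 3p miR (orange) and 5p moR (green) of each hairpin in the 3 clusters, 1 point per library (circle, square and triangle for replicates 1, 2 and 3), with libraries at 0 reads drawn as open symbols at the foot of the axis. With shared 5p reads divided evenly, as deposited, the member of the family at the left is highest in 5p miR, on chromosome 9 by as little as 1.01 times and not under another division, and it is lowest in 5p moR.

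The spread between libraries differed between members. Among 162 miR rows of at least 100 mean RPMR, the coefficient of variation over the 3 libraries had a median of 11.9%. It was 0.656% for miR-99a-5p, the lowest of the 162, 3.17% for miR-99b-3p, 8.55% for miR-100-5p and 12.7% for miR-99b-5p. The place of miR-99a-5p depended on the denominator. Scaled to mapped reads in place of window reads, its level was 22975, 26054 and 25443, a coefficient of variation of 6.57% and rank 42 from the lowest. With miR-21a-5p taken out of the window total it was 5.04%, rank 29. The order of the 3 5p miRs by spread was the same with all 3 denominators.

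**Figure D4:**
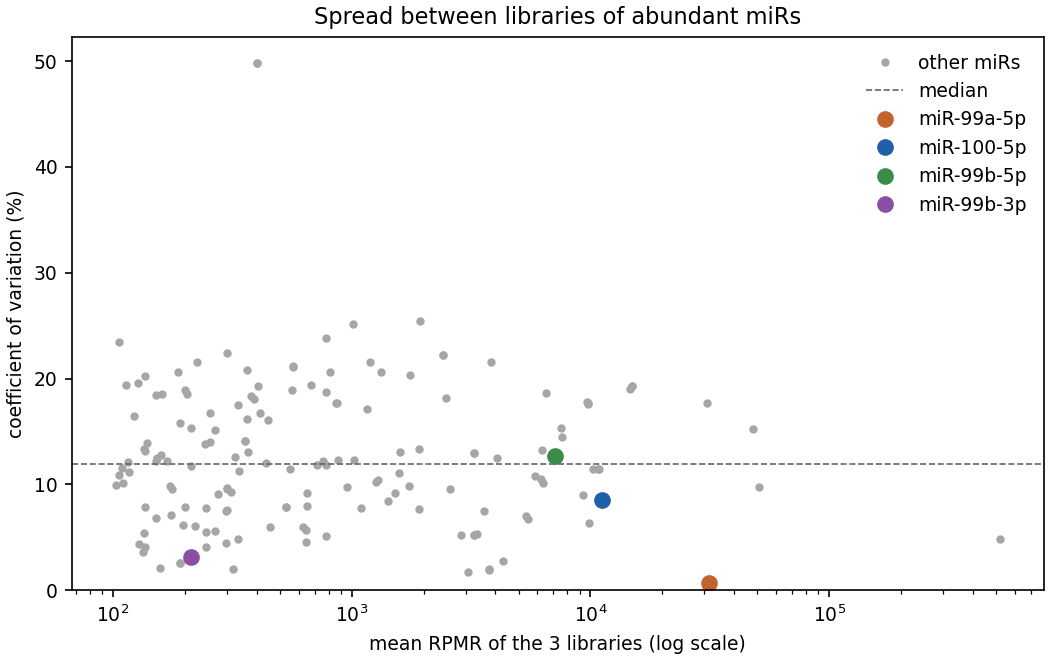
Coefficient of variation over the 3 libraries (vertical axis, percent) against the mean RPMR (horizontal axis, log scale) for the 162 miR rows of at least 100 mean RPMR, with the members in colour and a dashed line at the median of 11.9%. miR-99a-5p lies at the foot of the plot at 0.656%, and miR-99b-5p lies near the median at 12.7%.

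The miRs with the most similar course over the 3 libraries were looked up by the root mean square difference of log2 levels, each divided by its own mean, among 141 other miRs. For miR-99a-5p these were miR-125b-2-3p (0.02), miR-192-5p (0.02) and miR-152-3p (0.03), the first of them from the same cluster. For miR-100-5p they were miR-143-5p (0.01), miR-1839-5p (0.04) and miR-21a-5p (0.04). For miR-99b-5p they were miR-27b-3p (0.02), miR-24-3p (0.02) and miR-1198-5p (0.02). With 3 libraries such likeness is easily met, and 39, 25 and 34 miRs lay within 0.1 of miR-99a-5p, miR-100-5p and miR-99b-5p.

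The mir-10 family resembles the mir-99 and mir-100 family in sequence, and the 5p miRs are shown with their seeds in capitals (RefSeq, GRCm38.p6).

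miR-10a-5p: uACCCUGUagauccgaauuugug
miR-10b-5p: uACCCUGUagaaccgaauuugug

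The run guagauccgaa of 11 bases is common to miR-100-5p and miR-10a-5p, starting at base 6 of the former and base 7 of the latter, so the seeds differ. The level of miR-10a-5p was 3031, 2779 and 2766 RPMR, below miR-99b-5p in every library at 0.408 ± 0.08 of its reads (SD, n = 3). The level of miR-10b-5p was 1.91, 2.15 and 1.91 RPMR, below every 3p miR of the family.

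The site that pairs with the family's seed, TACGGGT, was searched on the transcribed strand of the longest annotated 3′ untranslated region of each protein-coding gene (GENCODE M21). It occurred in 232 of 21004 genes, or 1.10%. Sites of 4 genes often named as targets of this family are shown as examples, with the match to the seed in capitals, and no count is drawn from them.

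Mtor: gtaactgagaaaTACGGGTtttgac
Smarca5: agttctttaattTACGGGTcttcat
Fgfr3: tcagagacaaatTACGGGTacctga
Igf1r: agtccagtagatTACGGGTagtcgt

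The matches lie at chr4:148557149-148557155 for Mtor, the kinase that couples nutrients to growth, and chr8:80701013-80701019 (minus strand) for Smarca5, a chromatin remodelling ATPase. They lie at chr5:33736049-33736055 for the growth factor receptor Fgfr3 and chr7:68232107-68232113 for the receptor Igf1r. In Fgfr3 and Igf1r an A follows the match, opposite the first base of the miR, which is A in miR-99a-5p and miR-100-5p and C in miR-99b-5p. Messenger RNAs were not measured in these libraries, and whether these sites are used in AoSMC was not tested.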

How the data were processed

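Small RNA of 3 AoSMC libraries was built with a TruSeq kit and read as single reads by the authors. Adaptors were trimmed, and inserts over 13 bases were mapped to mm10 with Bowtie (its version is not given in the sources), with 0 mismatches and at most 5 places. A read close to several precursors was divided evenly. The authors counted reads within the miR widened by 3 bp, or from 3 bp inward to 35 bp outward of its outer end for a moR. The deposited raw values are estimated counts, since 172 of 2590 rows held values that were not whole. RPMR, also deposited, is an RPM value per library over all window reads, which the counts gave back for the members to within rounding. Other deposited values, per the file headers, were library totals and window coordinates, whose starts were read as 1-based because 1675 of 1679 miR windows then began 3 bases before the RefSeq miR.

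Counts were rounded and tested with edgeR 4.0.16 (R 4.3.3), quasi-likelihood test, window totals as library sizes, the library as block, Benjamini-Hochberg adjustment over all rows tested, and at least 10 reads in all. Samples are paired by design, both values of a comparison being from 1 library. DESeq2 1.42.0, no block, other minimums of 30 and 1 reads and leaving out each library were alternatives. Ratios, 95% exact Clopper-Pearson intervals and figures were made with Python 3.11.15, SciPy 1.17.1, numpy 2.4.6, pandas 2.3.3 and matplotlib 3.10.9. On simulated data, the fit of 5p against 3p moR called 45.45% of the pairs set apart, and the other fits 84.75% to 100%. At most 1 unchanged pair was called in each fit. The simulated spread was set in advance and not taken from the data. Where a moR had 0 reads, a fold was taken against a floor of 3 reads over all libraries.

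Named items were all rows of the 3 hairpins, the let-7 and mir-125 hairpins within 60 kb, mir-10a, mir-10b, the marker lists (smooth muscle, endothelial, blood, striated muscle, liver, neuron, epithelial) and for each 5p miR the 3 most similar miRs. The liver list summed to at most 1.75 RPMR, the neuron list to 12.5 and the epithelial list to 7.63. The members, lists and tests were chosen with earlier results of these data known. Of 1230 miR names in the tables, 1049 were matched to a RefSeq mature sequence. The 4 target genes shown, the comparison of 5p moRs within clusters, the other divisions of shared reads and the denominators for the spread were added after the data were seen. A further target gene considered is not reported here.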

Additional observations from a re-analysis of the deposited data

How the results depend on the processing

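Of the 133 values that alternatives gave for 18 tests on the family, 130 kept direction and side of the threshold, 3 lost the call and 0 were reversed. These include 8 values each for moR against miR of miR-99a-5p, miR-100-5p and miR-99b-5p, and 7 for the moRs of Mir99a. No call is read for those tests, so the count of 130 covers more than the results read here. All 3 losses concerned the moRs of Mir99a, with 33 reads behind them, and came without replicate 2, without replicate 3 and with DESeq2. Their 5p against 3p log2 ratio lay between -1.90 and -2.85. Numbers of calls over all hairpins moved as follows. For 5p against 3p moR, 3p was higher in 9 hairpins, in 4 with DESeq2 and in 4 with at least 30 reads, and in 1 to 5 when a library was left out. 5p was higher in 66, in 42 with at least 30 reads and in 11 to 54 when a library was left out, the lowest without replicate 3. More moR than miR was called for 14 arms, and for 7 to 13 when a library was left out. More miR than moR was called for 223, and for 685 with arms without a moR read included. The log2 ratio of miR-100-5p to the miR-125b-5p of Mir125b-1, 0.20 with even division, turned to -0.80 with all shared reads given to that locus and to -0.0028 with reads divided by the 3p reads of the loci. The family's share of 4.98% was 3.96% of mapped reads and 10.4% of window reads without miR-21a-5p.

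Without the replicate block, 163 and 166 hairpins were called for 5p and 3p miR, against 160 and 162 with it. The other numbers without the block were 67 and 9 for 5p and 3p moR, 14 and 224 for moR and miR of an arm, 194 for shared seeds, 106 for arm ratios and 146 for neighbours. On the family it changed no call. Depth limits the moRs, since 4 of the 6 lay at or below 3 reads over the 3 libraries.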
